A study of Mus musculus with 2 samples.

Results

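The data described here are the ratios of 9 mouse genes, 6 connexins (Gja1, Gja3, Gja4, Gja5, Gjb2 and Gjc1) and the 3 genes of the Popeye domain family (Bves, Popdc2 and Popdc3). They were taken by gene symbol from the platform annotation, which gave 14 of 41174 probes and 9 of 19532 genes with a named probe. The study hybridised total RNA of untreated, uncultured mouse heart, labelled with Cy3, together with RNA of cultured mouse embryonic fibroblasts (MEF), labelled with Cy5, on 2 Agilent arrays, one for heart 1 and one for heart 2. MEF are connective-tissue cells grown from embryos in serum-containing medium, so the comparison is of RNA of a whole organ with RNA of one cultured cell type; strain, age and sex are not given in the labels. The extraction text speaks of cell pellets while the source is named heart, and whether the hearts came from separate animals, or the MEF RNA from separate cultures, is not stated. The p-values therefore cover only how far the 2 arrays differ, which may be technical variation, and not how MEF cultures vary.

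Connexins are membrane proteins that assemble into hemichannels, and hemichannels of adjoining cells dock into gap junction channels that let ions and small molecules pass from cell to cell. In heart muscle these channels lie mostly at the intercalated disc and carry the action potential between myocytes, and vessel walls use their own set of connexins. Popeye domain proteins are membrane proteins with a cyclic AMP-binding domain, are most abundant in heart and skeletal muscle, and affect pacemaking and conduction in mouse.

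Values are taken as log2 ratios, one per probe and array. The base of the logarithm is not stated, and every fold value rests on it. Positive values are taken as heart over MEF. That direction is likely rather than stated. It rests on the design text, which describes the values as heart compared with MEF, and on 14 cardiac sarcomere genes, none of them among the 9, whose median ratio was 6.57 on the array of heart 1 and 6.66 on that of heart 2. Per the labels, heart carried the green dye and MEF the red, so a red-over-green ratio, which Agilent's software writes by default, would be MEF over heart, with every sign turned. Both arrays have the same dye orientation, so a probe's dye bias stays in its ratio. In tissue RNA, fewer cells of a type and less RNA per cell cannot be told apart. A ratio says nothing of the level, so the values below order differences between heart and MEF, not amounts of transcript.

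The Popeye genes and 4 of the 6 connexins were higher in heart, Gjb2 was lower and Gjc1 did not differ detectably. By limma's test of the gene means against 0 (Benjamini-Hochberg adjusted over all 19532 genes, threshold 0.05), 8 of the 9 genes passed, 7 higher and 1 lower, where 73.1% of all genes passed, 33.8% higher and 39.3% lower. The total number of calls is thus close to the share among all genes. The members were chosen with earlier results of these data known, so the sizes that follow describe them and may reflect that choice. At least 2-fold apart in one direction on both arrays were 8 of the 9 genes against 36.6% of all genes, with 7 higher (18.1% of all genes) and 1 lower (18.5%). Tested against a 2-fold change with limma's treat, 8 of the 9 genes passed, and 29.7% of all genes did. The median of the 9 genes was 3.04 against -0.04 over all genes. Of the 14 probes tested one by one, 11 passed, 9 higher and 2 lower, where 72.2% of all named probes passed, 32.9% higher and 39.3% lower.

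**Figure D1:**
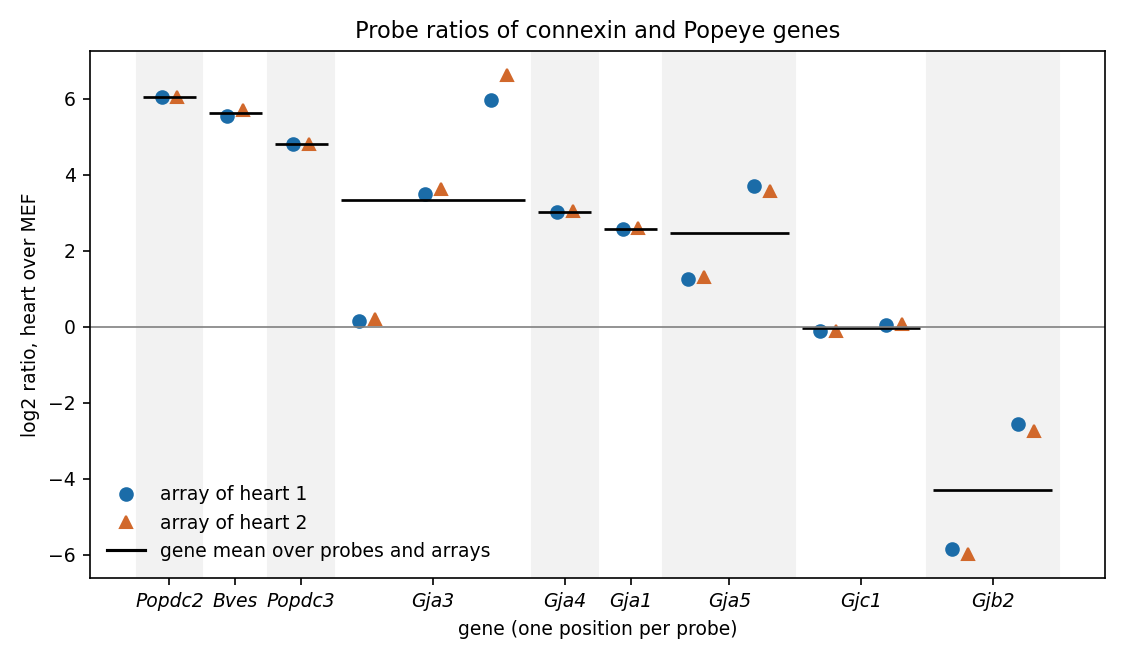
Log2 ratio of heart over MEF for each of the 14 probes, on the array of heart 1 (circles) and of heart 2 (triangles), with the mean of each gene as a line. The arrays lie close together for most probes, while the probes of Gja3, Gja5 and Gjb2 lie far apart.

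The Popeye genes had the 3 highest gene means of the 9. Popdc2, a Popeye protein needed for normal sinus node function under stress in mouse, stood at 6.06 on the array of heart 1 and 6.04 on that of heart 2. Its mean was 6.05 ± 0.01 (SD, n = 2), a 66.2-fold higher value in heart (limma adjusted p = 0.00136), rank 117 of 19532 genes from the top. Bves, also called Popdc1, a cell-adhesion-associated member of the family, stood at 5.55 and 5.71. Its mean of 5.63 ± 0.11 was 49.5-fold higher in heart (limma adjusted p = 0.00136). Popdc3, the third member, stood at 4.80 and 4.81, with a mean of 4.81 ± 0.01, 28-fold higher in heart (limma adjusted p = 0.00136).

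Bves, Popdc2 and Popdc3 were thus high on both arrays, and the ranges of the arrays did not overlap between any 2 of them. Each was measured by 1 probe annotated with a RefSeq transcript of the gene, so no second probe bears on these values. The adjusted p of 0.00136 is the smallest the gene test gave and is shared by many genes.

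Gja1, Gja5, Gja4 and Gja3 were higher in heart by between 5.51-fold and 10.2-fold. Gja1 encodes connexin 43, the main gap junction protein of working ventricular myocytes, which fibroblasts also make. Its single probe gave 2.57 on the array of heart 1 and 2.60 on that of heart 2, a mean of 2.58 ± 0.02 (SD, n = 2), 6.0-fold higher in heart (limma adjusted p = 0.00136). The limma 95% interval ran from 2.45 to 2.72.

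Gja5 encodes connexin 40, found in atrial myocytes, the ventricular conduction system and arterial endothelium. Its gene means were 2.48 and 2.45, with a mean of 2.46 ± 0.02, 5.51-fold higher in heart (limma adjusted p = 0.00136). The probes of Gja5 differed in size. One gave 1.25 and 1.32 and the other 3.71 and 3.57, although both are annotated with the same RefSeq transcript, and both were higher in heart by the probe test (limma adjusted p = 0.0025 and 0.0016).

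Gja4 encodes connexin 37, a connexin of endothelial cells. Its single probe gave 3.03 and 3.05, a mean of 3.04 ± 0.01, 8.21-fold higher in heart (limma adjusted p = 0.00136). The values of both arrays lay above those of Gja1 and above the gene means of Gja5, but below the higher Gja5 probe.

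Gja3 encodes connexin 46, best known from the fibre cells of the lens. Its gene mean was 3.21 on the array of heart 1 and 3.49 on that of heart 2, together 3.35 ± 0.20, 10.2-fold higher in heart (limma adjusted p = 0.0020). This mean covers 3 probes that disagree. The probe annotated with a RefSeq transcript gave 3.49 and 3.63 (limma adjusted p = 0.0016). One probe annotated with another cDNA record gave 5.98 and 6.64 (limma adjusted p = 0.0027), and one annotated with a further cDNA record gave 0.16 and 0.21 and did not pass (limma adjusted p = 0.0503).

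The probe means of Gja3 spanned 6.12 on the log2 scale, and only 0.846% of the 8511 genes with more than 1 probe had a wider span; their median span was 0.95. The low probe lay, on the array of heart 1 alone, within a narrow band of near-constant values that held 5014 probes of that array, between 0.12 and 0.20. Which of the 3 probes follows the Gja3 transcript in these RNAs was not tested, and the 10.2-fold value depends on averaging them; the median of the probes was 3.56.

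Gjb2 was the one gene of the 9 that was lower in heart. It encodes connexin 26, a connexin of epithelia and of the inner ear. Its gene means were -4.20 on the array of heart 1 and -4.36 on that of heart 2, a mean of -4.28 ± 0.11 (SD, n = 2), 19.4-fold lower in heart (limma adjusted p = 0.00136), rank 207 of 19532 from the bottom. One probe gave -2.56 and -2.74, the other -5.84 and -5.97, and both passed (limma adjusted p = 0.0021 and 0.0016). Both probes were low on both arrays, with a span of 3.25 between their means, and 7.03% of genes with more than 1 probe had a wider span.

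Gjc1 did not pass. It encodes connexin 45, the connexin of the early embryonic heart and of the sinus and atrioventricular nodes. Its gene means were -0.03 and -0.01, a mean of -0.022 ± 0.016 (limma adjusted p = 0.6454). The 95% interval ran from -0.16 to 0.12, so on these arrays a difference beyond it in either direction was not seen, within the spread of the arrays alone. Its probes gave 0.05 and 0.09 for one and -0.12 and -0.11 for the other, and neither passed (limma adjusted p = 0.2326 and 0.0981). The second probe lay in the band of near-constant values of the array of heart 2, between -0.20 and -0.10, which held 5544 probes.

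Ordered by mean ratio, the genes ran Popdc2, Bves, Popdc3, Gja3, Gja4, Gja1, Gja5, Gjc1 and Gjb2. In the deposited values, no neighbours in this order overlapped between the 2 arrays. With the arrays centred on their medians, Gja3 overlapped with Gja4 and Gja1 with Gja5. The smallest gap, 0.12 between Gja1 and Gja5, lay within their 95% intervals, which were 2.45 to 2.72 and 2.32 to 2.60. Over single probes, 8 of the 36 pairs of genes overlapped, so their order depends on the probe. Of these, 6 pair Gja3 with Popdc2, Bves, Popdc3, Gja4, Gja1 and Gja5, since its highest probe, at 6.31, exceeded Popdc2 and its lowest, at 0.19, lay below Gja5. The other 2 pair Gja5 with Gja4 and with Gja1. Without centring, the difference between the arrays was at most 0.28 for the 9 genes, in Gja3, against an SD of 0.32 over all genes.

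**Figure D2:**
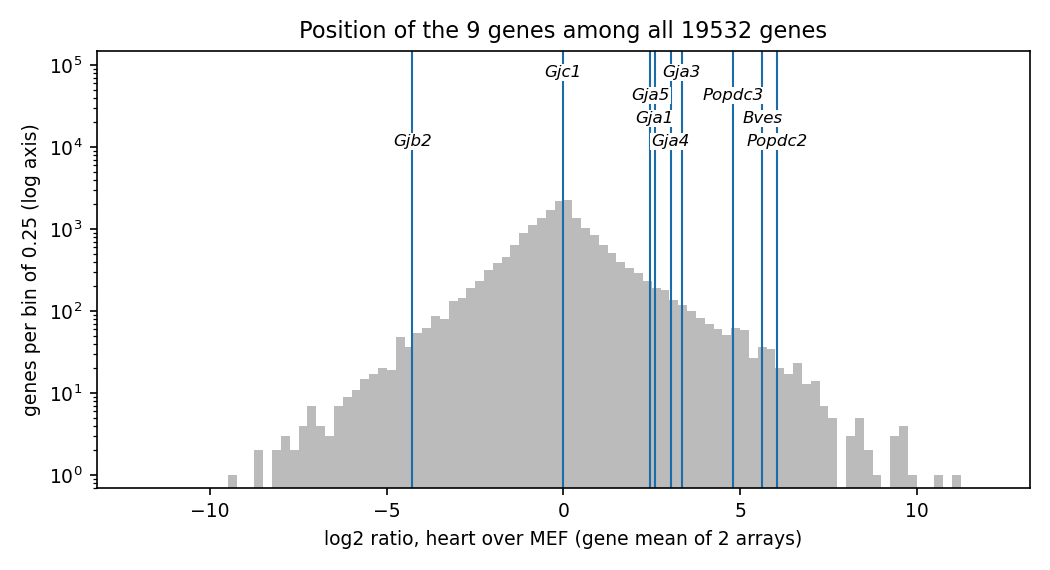
Number of genes by mean log2 ratio of heart over MEF in bins of 0.25, on a log axis, with the 9 genes as vertical lines. Popdc2 at 6.05 and Bves at 5.63 lie far into the upper tail, Gjb2 at -4.28 in the lower tail and Gjc1 at the centre.

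With 2 arrays, likeness to another gene means only a similar pair of ratios. By distance over the 2 array values, the genes nearest to Popdc2 were Scgb1c1 (6.05 and 6.08) and Casq2, the cardiac calsequestrin that binds calcium in the sarcoplasmic reticulum (6.05 and 6.10). The nearest to Gjb2 were Aplp1 (-4.25 and -4.35) and Lurap1l (-4.25 and -4.36).

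Promoter windows of 6 of the 9 genes were found in the RefSeq table of build GRCm38.p6. Shown are the bases before the annotated start of Gja1 and Gja5, both higher in heart, of Gjb2, lower in heart, and of Popdc2, the gene with the highest mean, 5′ to 3′ on the gene's strand. Capitals mark the motifs searched on both strands, which were a T-box half-site (AGGTGT), an Nkx2-5 type site (TNAAGTG), a site for GATA factors (AGATAA), one for AP-1 (TGANTCA), the GC box (GGGCGG) and a site for TEAD factors (CATTCC). The windows are chr10:56377050-56377299 on the plus strand for Gja1, chr3:97032152-97032401 on the plus strand for Gja5, chr14:57104703-57104952 on the minus strand for Gjb2 and chr16:38361940-38362160 on the plus strand for Popdc2, the last ending where another annotated transcript begins.
Gja1: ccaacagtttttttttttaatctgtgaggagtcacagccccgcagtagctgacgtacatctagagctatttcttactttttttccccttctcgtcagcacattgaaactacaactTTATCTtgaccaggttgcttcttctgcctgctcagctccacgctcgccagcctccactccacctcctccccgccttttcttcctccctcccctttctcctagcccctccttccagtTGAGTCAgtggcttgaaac
Gja5: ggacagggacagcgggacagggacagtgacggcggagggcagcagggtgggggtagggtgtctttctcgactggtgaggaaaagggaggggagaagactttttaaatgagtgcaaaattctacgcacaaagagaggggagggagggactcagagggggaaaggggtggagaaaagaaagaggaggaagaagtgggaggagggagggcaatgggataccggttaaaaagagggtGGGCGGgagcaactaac
Gjb2: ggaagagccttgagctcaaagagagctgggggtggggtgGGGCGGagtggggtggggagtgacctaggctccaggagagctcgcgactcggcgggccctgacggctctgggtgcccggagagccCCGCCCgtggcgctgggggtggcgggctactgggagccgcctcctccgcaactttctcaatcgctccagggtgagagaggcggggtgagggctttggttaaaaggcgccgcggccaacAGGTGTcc
Popdc2: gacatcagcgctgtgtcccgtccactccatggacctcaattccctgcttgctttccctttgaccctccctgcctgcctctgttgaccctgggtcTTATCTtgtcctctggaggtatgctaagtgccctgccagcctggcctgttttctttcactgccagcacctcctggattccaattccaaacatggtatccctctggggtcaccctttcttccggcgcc

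In the 250 bases before the start, Gja1 held a GATA type site, which 9.99% of 32851 promoter windows of that length held, and an AP-1 type site ending 13 bases before the start (6.75% of windows). Popdc2 also held a GATA type site, and past the end of the bases shown a TEAD type site (12.6% of windows). An Nkx2-5 type site (10.1% of windows) was found in none of the 6 genes' windows. Gja5 held a GC box ending 12 bases before the start (32.7% of windows), and Gja4, not shown, held one as well. Gjb2 held 2 GC boxes and a T-box half-site (11.8% of windows), which one of the windows of Gja3 also held. The Gjb2 window was 69.2% G and C against 50.0% in Gja1 and a median of 52.4% over all windows. No matches overlapped another motif, and a match is a match of letters only.

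Of 12 further connexins and pannexins measured, 4 passed, 2 higher and 2 lower, which is 33.3% against 73.1% of all genes, and their median was 0.016. Gja10, a connexin of retinal horizontal cells in mouse, was at 1.22 and 1.45 (mean 1.33 ± 0.16, limma adjusted p = 0.0052). Gjb1, the connexin of liver and of myelinating Schwann cells, was at 0.58 ± 0.09 (limma adjusted p = 0.0105). Gjb5, an epithelial connexin, was lower in heart at -1.82 and -1.83 (mean -1.82 ± 0.01, limma adjusted p = 0.0014). Panx1, a pannexin that forms large-pore channels in single membranes and releases ATP, was lower at -1.46 and -1.06 (mean -1.26 ± 0.28, limma adjusted p = 0.0137).

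The other 8 were Gja6, Gjb6, Gjc3, Gjd2, Gjd3, Gjd4, Gje1 and Panx3, with means between -0.59 and 0.35, and did not pass. Of these, Gjd2, Gje1 and Panx3 lay within the bands of near-constant values on both arrays, and the median of 0.016 includes them. With such probes left out, 4 of 9 genes passed, 2 higher and 2 lower. Gjd4 was at -0.78 and -0.39 (limma adjusted p = 0.0532) and passed when the arrays were centred, scaled or quantile-normalized. By gene mean, Gja1, Gja3, Gja4 and Gja5 had higher ratios than these 12 genes, and Gjb2 a lower one, which may also reflect how the members were chosen. The lower Gja5 probe (1.29) and the lowest Gja3 probe (0.19) lay below the 1.33 of Gja10.

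**Figure D3:**
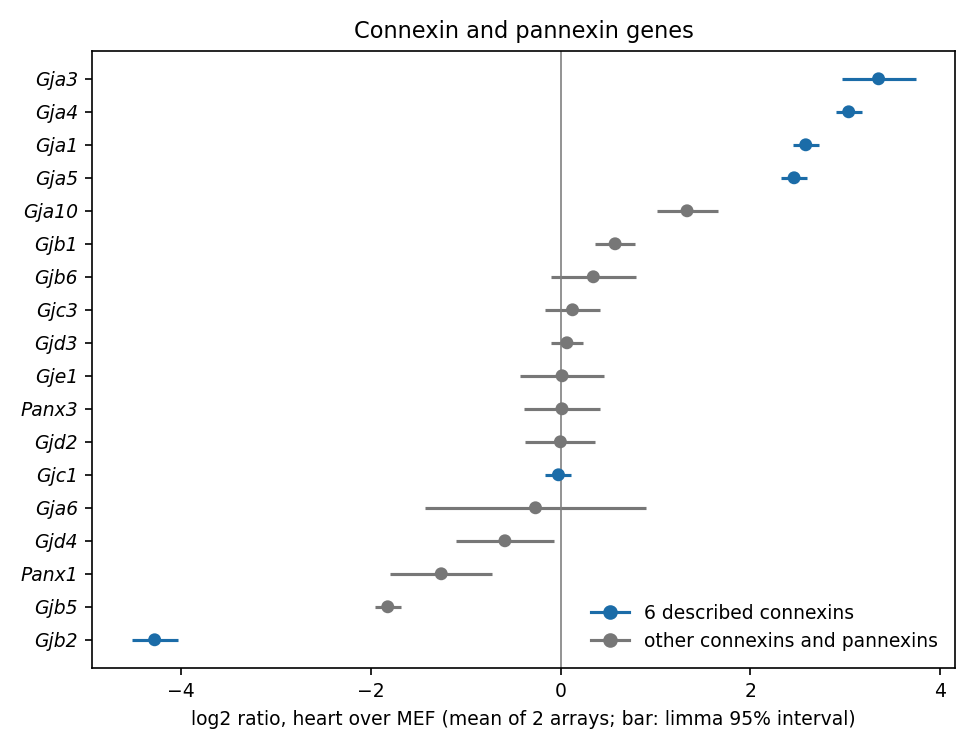
Mean log2 ratio of heart over MEF of 18 connexin and pannexin genes, with limma's 95% interval as a bar. Gja3, Gja4, Gja1 and Gja5 lie between 2.46 and 3.35, Gjb2 at -4.28, and the other connexins and pannexins between -1.82 and 1.33.

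Gja3 and Gjb2 are direct neighbours among the protein-coding genes of chromosome 14, and Popdc3 and Bves of chromosome 10, in the RefSeq annotation; these neighbours were looked up after their values were seen. On chromosome 14 the neighbours went opposite ways, Gja3 at 3.35 ± 0.20 and Gjb2 at -4.28 ± 0.11. The next gene, the connexin Gjb6, stood at 0.51 on the array of heart 1 and 0.18 on that of heart 2 and did not pass (limma adjusted p = 0.1045). Cryl1, which follows, was slightly lower in heart at -0.40 ± 0.02 (limma adjusted p = 0.010).

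On chromosome 10 Popdc3 and Bves went the same way, at 4.81 and 5.63. The genes flanking the pair were slightly lower in heart, with Prep, a prolyl peptidase, at -0.42 ± 0.02 (limma adjusted p = 0.0088) and Lin28b, an RNA-binding protein of embryonic cells, at -0.26 ± 0.03 (limma adjusted p = 0.0237). The calls on Prep, Lin28b and Cryl1 were not checked with the arrays centred or scaled. Some listed genes with small ratios, such as Tjp1 (0.27) and Dysf (0.40), lost their calls in such settings. The high ratios of the pair were not shared by either flanking gene. On the far side of Prep, the transcription factor gene Prdm1 was higher in heart, at 3.77 and 4.46 (mean 4.11 ± 0.49, limma adjusted p = 0.0046).

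**Figure D4:**
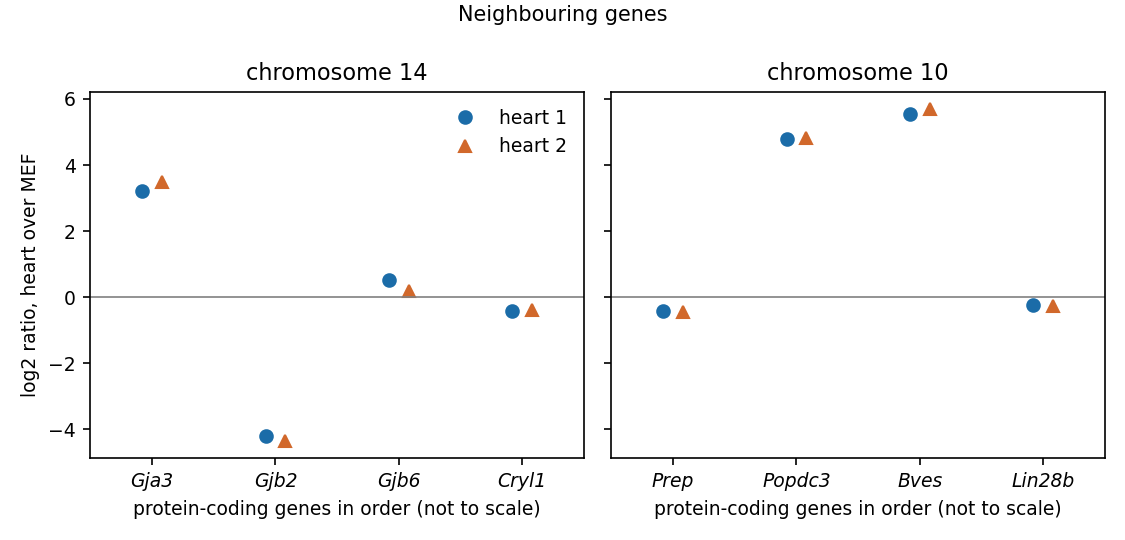
Log2 ratio of heart over MEF on the array of heart 1 (circles) and heart 2 (triangles) for 4 successive protein-coding genes of chromosome 14 and of chromosome 10, in order but not to scale. Gja3 lies above 3 beside Gjb2 below -4, while Popdc3 and Bves both lie above 4 between Prep and Lin28b near 0.

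Genes listed for the intercalated disc and as connexin partners were mostly higher in heart. Whether each product, Akap6 among them, lies at the disc or acts on connexins was not tested. Of 24 measured genes 17 were higher, 6 lower and 1 did not pass, a share passing of 95.8% against 73.1% of all genes, with a median of 1.32. Akap6, an anchor of protein kinase A in myocytes, was at 6.22 and 6.61 (mean 6.42 ± 0.27), the desmosomal plaque protein desmoplakin, Dsp, at 6.26 ± 0.35, and the desmosomal cadherin Dsc2 at 4.61 ± 0.07 (limma adjusted p at most 0.0018). Ccn3, a secreted protein that can bind connexin 43, was lower at -4.53 ± 0.03, and so was drebrin, Dbn1, an actin-binding protein that links connexin 43 to the cytoskeleton, at -4.12 ± 0.02 (limma adjusted p = 0.00136 for both).

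Cdh2, Tjp1 and Src were named only after their values were seen. Cdh2, N-cadherin of the disc, was at 2.54 ± 0.04 (limma adjusted p = 0.0014), close to Gja1 by gene mean only, as its 4 probe means ran from 1.01 to 3.64. Tjp1, the scaffold ZO-1 that binds the tail of connexin 43, was at 0.27 ± 0.04 (limma adjusted p = 0.0232), a call lost when the arrays were centred or scaled. The kinase Src, which phosphorylates connexin 43, was lower at -2.15 ± 0.05 (limma adjusted p = 0.0014).

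Of 15 transcription factors that act on cardiac connexin genes or in the conduction system, 9 were higher, 5 lower and 1 did not pass (93.3% against 73.1% of all genes, median 0.85). Hopx was at 5.74 ± 0.0040, Nkx2-5, an activator of Gja5, at 5.06 ± 0.16 and Tbx20 at 2.93 ± 0.42 (limma adjusted p at most 0.0061). Shox2, a factor of the sinus node that is also made in limb and other mesenchyme, was lower at -4.33 and -5.0 (mean -4.66 ± 0.48, limma adjusted p = 0.0037), and Hand1 at -1.52 ± 0.03 (limma adjusted p = 0.0017). Named after their values were seen, Tbx5, which activates Gja5, was at 1.31 ± 0.08, while the repressors of Gja1 and Gja5, Tbx2 and Tbx3, were at -0.49 ± 0.06 and 0.32 ± 0.11 (limma adjusted p = 0.0028, 0.0099 and 0.0384). The call on Tbx3 was lost when the arrays were centred or scaled, and its 2 probes lay on opposite sides of no difference, at -0.28 and 0.92. The 4 probe means of Tbx20 ran from 0.35 to 4.96, and the 2 of Tbx5 were 0.40 and 2.23.

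Of 18 measured partners of Popeye proteins and genes of cyclic AMP signalling, 16 were higher, 1 lower and 1 did not pass (94.4% against 73.1% of all genes, median 1.20). Cav3, the caveolin of muscle, which binds Popeye proteins, was at 5.86 and 5.83 (mean 5.84 ± 0.03), near Bves and Popdc2. Xirp1, a disc protein, was at 4.38 ± 0.03, Kcnk2, the potassium channel TREK-1, which Popeye proteins bind, at 4.16 ± 0.01, and Adcy5, a cardiac adenylyl cyclase, at 3.03 ± 0.03 (limma adjusted p = 0.0014 for each). Arhgef25, a guanine nucleotide exchange factor that binds Bves, was lower at -2.50 ± 0.01 (limma adjusted p = 0.0014), and Prkar2a, a regulatory subunit of protein kinase A, was at -0.20 ± 0.08 and did not pass. With the arrays centred on their bands of near-constant values 14 of the 18 were higher, as Dysf (0.40) and Vamp3 (0.37), named for this, no longer passed.

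**Figure D5:**
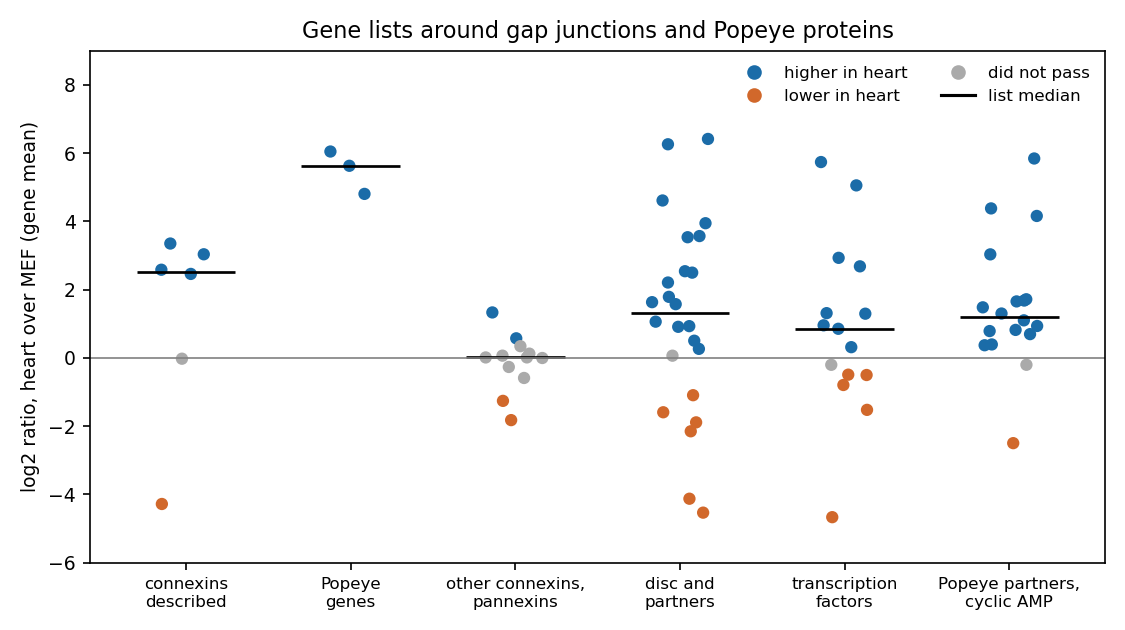
Mean log2 ratio of heart over MEF of each gene in 6 lists, coloured by limma call, with the list median as a line. The Popeye genes lie between 4.81 and 6.05, and the partner lists spread on both sides of 0 with medians between 0.85 and 1.32.

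Markers of cell types, among them types that make these connexins, were read from the same comparison. Some lists went one way and others both ways. Of all genes, 73.1% passed, 33.8% higher and 39.3% lower. By gene mean, all 8 endothelial markers were higher in heart, between 2.68 and 7.53, beside Gja4 and Gja5. Probes of some disagreed. The 2 probe means of Kdr were -0.21 and 5.57, and the 3 of Vwf ran from 0.005 to 6.99. Of 6 arterial endothelial markers other than Gja4 and Gja5, 4 were higher and 2 lower, between -1.97 (Unc5b) and 3.24 (Sox17). All 6 cardiac muscle markers (3.36 to 11.2), 5 atrial markers (3.91 to 7.31) and 4 ventricular markers (2.36 to 6.52) were higher, so markers of both kinds of chamber were higher. Of these, Myh6, Tnni3, Tnnt2, Actc1, Myl7, Myl4, Myl2 and Myl3 helped set the sign of the ratios, so their direction was fixed beforehand. Ryr2, Pln, Sln, Nppa, Bmp10, Irx4 and Hey2 had no part in setting it. Of 7 conduction system markers 4 were higher and 3 lower, between -4.66 and 1.05, with Hcn4, the pacemaker channel, at 0.79 ± 0.11 (limma adjusted p = 0.0078); Tbx3, one of the 4, lost its call as given above. Smooth muscle markers were higher for 2 and lower for 4 of 6, but Smtn (0.32), one of the 2, did not pass when the arrays were centred or scaled. All 6 fibroblast markers were lower, between -7.38 and -0.65.

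The following counts also stand against 33.8% higher and 39.3% lower over all genes. Beside the Popeye genes, which skeletal muscle also makes, 9 skeletal muscle markers gave 4 higher, 4 lower and 1 not passing. Of these Myh4 (5.33) and Ckm (6.13) were high, while Myod1 was at -1.04 and Myog at -0.35. The calls on Myog and Myh2 (-0.34), both lower, were lost when the arrays were centred or scaled, which left 2 lower; that on Myh2 was also lost with the median over probes, and that on Tnni2 (0.39), one of the 4 higher, with centring on the near-constant bands. Beside Gjb2, the 6 epithelial markers gave 1 higher (Krt8, 1.02), 3 lower (Cdh1 lowest, at -1.53) and 2 not passing. With the arrays centred or scaled these became 2 higher, 2 lower and 2 not passing, as Krt5 (-0.20) lost its call and Epcam (-0.01 on the array of heart 1 and 1.24 on that of heart 2) gained one. The p-values of those settings stand on another scale, as given below, and the arrays still disagreed on Epcam. Of the blood cell markers, those of neutrophils, S100a8 (9.38) and S100a9 (7.53), and of erythroid cells, Alas2 (6.58) and Hba-a1 (6.27), were higher in heart, and those of macrophages, Adgre1 (-1.68) and Csf1r (-0.70), were lower. No level of a marker can be given from ratios alone, and the part of cell composition in the ratios of the 9 genes was not tested.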

How the data were processed

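Log2 ratios of 2 two-colour arrays were taken from the value table the authors deposited; per the submitters' processing notes the scans were read with Agilent Feature Extraction, while version, background correction, normalization and filters are not given there. No source names the base of the logarithm. The largest value, 11.62, would be a ratio of 111441 as a natural logarithm, above the 65535 of a 16-bit scanner, so log2 was taken. The deposited log2 medians, 0.07 and -0.14, show no median centring; what centring was used is unknown. Without channel intensities, background and saturation could not be judged; the number of arrays limits the precision.

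Probes were named from the platform annotation: 32664 had 1 symbol, 45 several and 8465 none. Identifiers of 32524 were found in RefSeq (GRCm38.p6), with unchanged symbols throughout. A gene's value is the mean of its probes. Genes, and separately named probes, were compared with a ratio of no difference in limma (version 3.58.1, run in R 4.3.3; moderated by eBayes, two-sided, Benjamini-Hochberg over all features, threshold 0.05), with 1 residual degree of freedom and a variance prior shared across genes (SD 0.066, 1.25 degrees of freedom). The fit was run on simulated data with variances drawn from its own prior and few genes changed. That run cannot test how well the prior suits these data. Tables were joined in Python 3.11.15. Alternatives were the median over probes, centring, scaling, quantile normalization, other variance models, a 2-fold null and leaving out probes near-constant on both arrays. The members, lists and tests were chosen with earlier results of these data known. Named genes were all members, all further connexins and pannexins, and of each other list up to 4 with the largest mean and up to 2 against its majority; others are said to be named after their values were seen. Some genes of these families and lists are not reported here.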

Additional observations from a re-analysis of the deposited data

How the results depend on the processing

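Of 81 ratios of the 9 genes recomputed with a test, 78 kept their direction and their side of the threshold; the 18 values of 1 array alone, which have no test, had the sign of the mean. Gjc1, never called, turned to 0.014 with the arrays centred on their medians and to 0.016 with them also scaled. Centring on the medians also changed the SD between the arrays. It rose from 0.019 to 0.162 for Gja1 and from 0.0059 to 0.149 for Popdc3, and fell from 0.111 to 0.032 for Gjb2. For Popdc2 it rose to 0.129, yet limma's adjusted p fell from 0.00136 to 4.29e-217. With the arrays centred or scaled, the p-values thus do not follow the spread of each gene as with the deposited values. Calls kept, gained or lost in those settings are therefore not like for like. Gja3 kept its ratio but did not pass without the variance shared across genes (limma adjusted p = 0.0632), where 7 of the 9 genes passed; in every other setting run 8 passed. Of the 14 probes, 8 passed without the shared variance, against 11. Leaving out probes near-constant on both arrays kept all 14 probes in the test, and 12 passed. The Gja3 and Gjc1 probes that lay in a band on 1 array were thus kept, so this setting does not check them. The number of genes at least 2-fold apart was 8 with either array left out. Against a 2-fold change all 8 genes also passed.

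Larger counts fell without the shared variance and against a 2-fold change: all genes from 14283 to 6131 and 5797, all 69 listed genes from 58 to 34 and 36, transcription factors from 14 to 6 and 8, and further connexins and pannexins from 4 to 1 and 1. Disc genes fell from 23 to 15 without the shared variance, and Popeye partners from 17 to 10 against 2-fold. Both settings ask for more evidence by construction. Leaving out an array leaves 1 array and no test. No paired analysis was possible because there is a single group of arrays.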

Other observations

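Other protein-coding neighbours of the 9 genes were looked up in the RefSeq annotation after the values of the 9 were known. Higd1b, next to Gjc1 on chromosome 11, stood at 5.60 on the array of heart 1 and 5.84 on that of heart 2 (mean 5.72 ± 0.17, limma adjusted p = 0.0014), beside Gjc1 at -0.022. Eftud2, a spliceosome component that follows Higd1b, was lower in heart at -1.91 ± 0.02 (limma adjusted p = 0.0014). Pla1a, a phospholipase gene next to Popdc2 on chromosome 16, was higher at 3.21 ± 0.03 (limma adjusted p = 0.0014), and Cox17, a copper chaperone of cytochrome oxidase on its other side, at 0.50 ± 0.0019 (limma adjusted p = 0.0061). Of the genes around Gja1, Msl3l2 was lower at -1.39 ± 0.09 (limma adjusted p = 0.0028), while Hsf2 (-0.24 ± 0.13) and Serinc1 (0.12 ± 0.04) did not pass.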
